A study of Homo sapiens with 8 samples.

Results

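GART and the genes around it encode the enzymes that build purine nucleotides. They were followed in IGROV-1 cells, a human line established from an ovarian carcinoma, here carried as a peritoneal tumor in mice. The 10 genes, GART, PPAT, PFAS, PAICS, ADSL, ATIC, GMPS, IMPDH1, IMPDH2 and HPRT1, were chosen by symbol with the results of the saline and CpG-ODN comparison already known. Of 48797 probes on the array, 16 carried the symbol of 9 of these genes, and no probe is named for GMPS here. The difference between CpG-ODN and saline is therefore given for these genes as a description, with its standard error and without a p-value. Where one of them is said to be called or not called, this places it against the threshold used for every kept probe. These calls are descriptions too, and nothing is rested on them.

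The 8 arrays, one for each sample, comprised 4 from saline and 4 from CpG-ODN. CpG-ODN is ODN1826, a phosphorothioate oligonucleotide whose unmethylated CpG motifs are sensed by Toll-like receptor 9. Mice received ascitic IGROV-1 cells intraperitoneally and, 10 to 11 days later, saline, or 20 µg of CpG-ODN per mouse into the peritoneum. Dosing was on 3 consecutive days or in 1 administration, and which array had which is not stated. Tumor cells adhering to the peritoneal wall were taken 24 hours after the last treatment. Strain, sex and age of the mice are not given in the sources used here, and the samples may hold mouse cells beside the human line. The labels count 4 mice in a group, but do not say which mouse gave which array, so p-values cover the spread among the arrays alone, which may be technical.

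De novo purine synthesis assembles inosine monophosphate (IMP) step by step on a ribose phosphate, phosphoribosyl pyrophosphate (PRPP), with nitrogen from glutamine, glycine and aspartate and carbon from folate. IMP is then turned into adenine or guanine nucleotides, while salvage enzymes recover free bases. Dividing cells rely heavily on the de novo route, and antifolate drugs act partly on it.

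Signals are given as log2 of the background-corrected and quantile-normalized intensity. A probe counted as above background on an array where its deposited detection p-value was under 0.05, and it was kept for testing where this held on at least 4 of 8 arrays. Of the 16 probes, 13 were kept, of which 12 were above background on all 8 arrays with deposited detection p-values of 0. A gene is represented by the brightest of its kept probes, and levels are compared only within a probe. Called means an adjusted p under 0.05 in a limma fit over all 18184 kept probes. Mean raw signal per array lay between 876 and 1079 in saline and between 806 and 1073 after CpG-ODN. Between 18784 and 20114 probes were detected in saline, against 18425 to 18570 after CpG-ODN (two-sided exact permutation test, p = 0.0286, the smallest that 4 against 4 arrays allow), and the part of this in the differences below was not tested.

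GART encodes a trifunctional enzyme that catalyses several early steps of the pathway, one of which takes its carbon from folate. The gene lies on chromosome 21 at 33503931 to 33542893 (GRCh38.p14), and 3 probes bear its name. The first, ILMN_1679476, is annotated to NM_000819, the transcript of the full-length enzyme. It stood at 11.60, 11.67, 11.59 and 11.59 on the saline arrays 1 to 4. On the CpG-ODN arrays it stood at 9.55, 9.70, 9.57 and 9.53. Every CpG-ODN array was far below every saline array, and the arrays of a group lay close together, with SDs of 0.04 and 0.08 (n = 4 each). The log2 difference was -2.03 ± 0.11 (SE), which is 24.5% of the saline level or 4.08-fold lower. Only 27 of the 18184 kept probes, this one included, fell by as much. In the raw signals, before any normalization, this probe lay between 3012 and 4163 in saline and between 727 and 1086 after CpG-ODN.

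The other kept GART probe was also lower, though by less, and the last probe lay near background. ILMN_1793220 is annotated to NM_175085, which encodes a short form of the enzyme that carries the first of its activities alone. It stood at 9.57, 9.66, 9.57 and 9.94 in saline and at 9.10, 9.50, 9.59 and 9.17 after CpG-ODN. The groups overlapped, because CpG-ODN replicate 3 was as high as the lower saline arrays. Its log2 difference was -0.34 ± 0.15 (SE) and was not called. It stayed negative and uncalled in each of 19 alternative settings. The remaining probe, ILMN_1800020, is also annotated to NM_175085. It rose above background on 1 of the CpG-ODN arrays and 0 of the saline arrays, with detection p-values from 0.0356 to 0.613, and was not tested. The 2 kept probes thus gave unlike sizes for one gene. Whether each binds only the transcript it is annotated to was not tested, and the difference between the probes was not tested either.

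**Figure D1:**
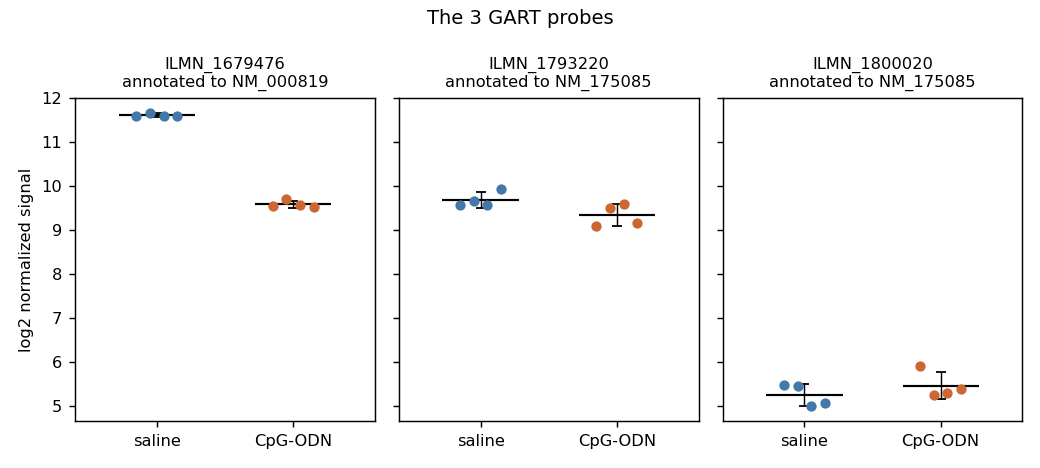
Normalized log2 signal (vertical axis) of the 3 GART probes on each of the 4 saline and 4 CpG-ODN arrays. Points are arrays, lines are group means and bars are SDs. The probe annotated to NM_000819 lies at 11.59 to 11.67 in saline and at 9.53 to 9.70 after CpG-ODN, whereas the groups overlap for the other probes.

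GART starts back to back with SON, a gene for an RNA-binding splicing factor that is read from the opposite strand. The stretch between the starts, 145 bases from RefSeq (GRCh38.p14, chr21:33542893-33543037), is shown because both genes were measured. It is written on the minus strand, the strand of GART, with matches to CCAAT on either strand in capitals. Read from left to right, it begins beside the SON start and ends beside the GART start. Its label names the pair and not the order.
GART to SON: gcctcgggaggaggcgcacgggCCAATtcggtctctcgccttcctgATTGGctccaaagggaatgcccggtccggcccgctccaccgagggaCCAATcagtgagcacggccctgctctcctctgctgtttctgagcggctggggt
The stretch holds 3 matches. CCAAT on either strand occurs in 34.6% of all 35116 RefSeq windows that run from 250 bases before a gene start to 50 after it, and in 3 of the 12 windows of the purine genes, all 3 of them GART windows. The 12 windows belong to 8 genes, with several starts for GART and PAICS. ADSL and IMPDH2 have no window in the table used.

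SON was looked at for its position, with the GART values known. Its brightest probe, annotated to NM_138927, stood at 11.91 ± 0.08 (SD, n = 4) in saline against 11.80 ± 0.20 (SD, n = 4) after CpG-ODN. The log2 difference was -0.11 ± 0.13 (SE, limma adjusted p = 0.564). Both kept probes annotated to another SON transcript, NM_032195, rose, by 1.18 ± 0.14 (adjusted p = 0.000295) and 1.67 ± 0.15 (adjusted p = 0.000104). The 2 other kept probes of NM_138927 stood at 0.14 and 0.10 (adjusted p = 0.753 and 0.701). None of the 5 kept SON probes was called lower.

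Of the other enzymes on the way to IMP, PPAT, PFAS and ADSL were called lower after CpG-ODN and ATIC was not. PPAT, the amidophosphoribosyltransferase that commits PRPP to the pathway, stood at 10.29, 10.16, 10.31 and 10.23 in saline and at 9.15, 9.63, 9.36 and 9.19 after CpG-ODN. The groups did not overlap, and CpG-ODN replicate 2 was the highest of its group. The log2 difference of PPAT was -0.91 ± 0.13 (SE), or 53.1% of the saline level.

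PFAS, which adds a nitrogen from glutamine to a product of GART and hands its own product back to GART, stood at 10.30, 10.65, 10.09 and 10.51 in saline and at 9.76, 9.60, 9.88 and 9.74 after CpG-ODN. The saline arrays were spread more widely than the CpG-ODN arrays, and the groups did not overlap. Its log2 difference was -0.64 ± 0.14 (SE), or 64.0% of the saline level.

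PAICS, a bifunctional enzyme that acts after GART and PFAS, was read by 3 probes. The brightest, ILMN_2392546, stood at 13.67, 13.45, 13.59 and 13.56 in saline and at 13.05, 13.28, 13.32 and 13.29 after CpG-ODN. The groups did not overlap, but the difference of -0.33 ± 0.12 (SE) was not called. ILMN_1773760 stood at 13.54, 13.53, 13.36 and 13.53 in saline and at 13.08, 12.94, 13.17 and 13.15 after CpG-ODN. It was called lower at -0.41 ± 0.11 (SE). That call was lost on leaving out saline replicate 1, 2 or 4 or CpG-ODN replicate 1 or 2, with differences from -0.40 to -0.36. It was also lost with median scaling, no detection filter, detection on at least 1 array and the replicate number as a block. The dim probe ILMN_2286106 passed the detection threshold on 2 of the saline and 3 of the CpG-ODN arrays and stood at 0.16 ± 0.17 (SE). The call for PAICS therefore depends on the probe.

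ADSL, the lyase that acts both on the way to IMP and in the making of AMP, stood at 12.95, 12.88, 12.77 and 12.92 in saline and at 12.32, 12.31, 12.36 and 12.26 after CpG-ODN. Its groups were well apart, and the log2 difference was -0.57 ± 0.11 (SE), or 67.4% of the saline level. ATIC, which closes the ring to give IMP and draws its carbon from folate, stood at 13.25, 13.35, 13.24 and 13.20 in saline and at 12.81, 13.16, 12.92 and 13.08 after CpG-ODN. The groups did not overlap, with the lowest saline array only just above the highest CpG-ODN array. The difference for ATIC was -0.27 ± 0.12 (SE) and was not called.

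IMPDH1 and IMPDH2 are the isoenzymes that send IMP towards guanine nucleotides. IMPDH1 lay between 11.17 and 11.50 in saline and between 11.09 and 11.34 after CpG-ODN, a difference of -0.13 ± 0.12 (SE). Its other probes were above background on 1 of 4 arrays in each group and on no array, and were not tested. IMPDH2 lay between 12.71 and 13.22 in saline and between 12.58 and 12.77 after CpG-ODN, a difference of -0.23 ± 0.13 (SE). Both IMPDH genes overlapped between the groups and were not called.

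HPRT1, which salvages hypoxanthine and guanine and is often taken as a reference gene, was read by 2 bright probes. The brighter lay between 12.59 and 12.70 in saline and between 12.19 and 12.59 after CpG-ODN, a difference of -0.29 ± 0.12 (SE). The other ran from 11.20 to 11.53 and from 11.09 to 11.41, a difference of -0.05 ± 0.13 (SE). Neither was called, and the groups overlapped for both, through CpG-ODN replicate 3 for the brighter probe.

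**Figure D2:**
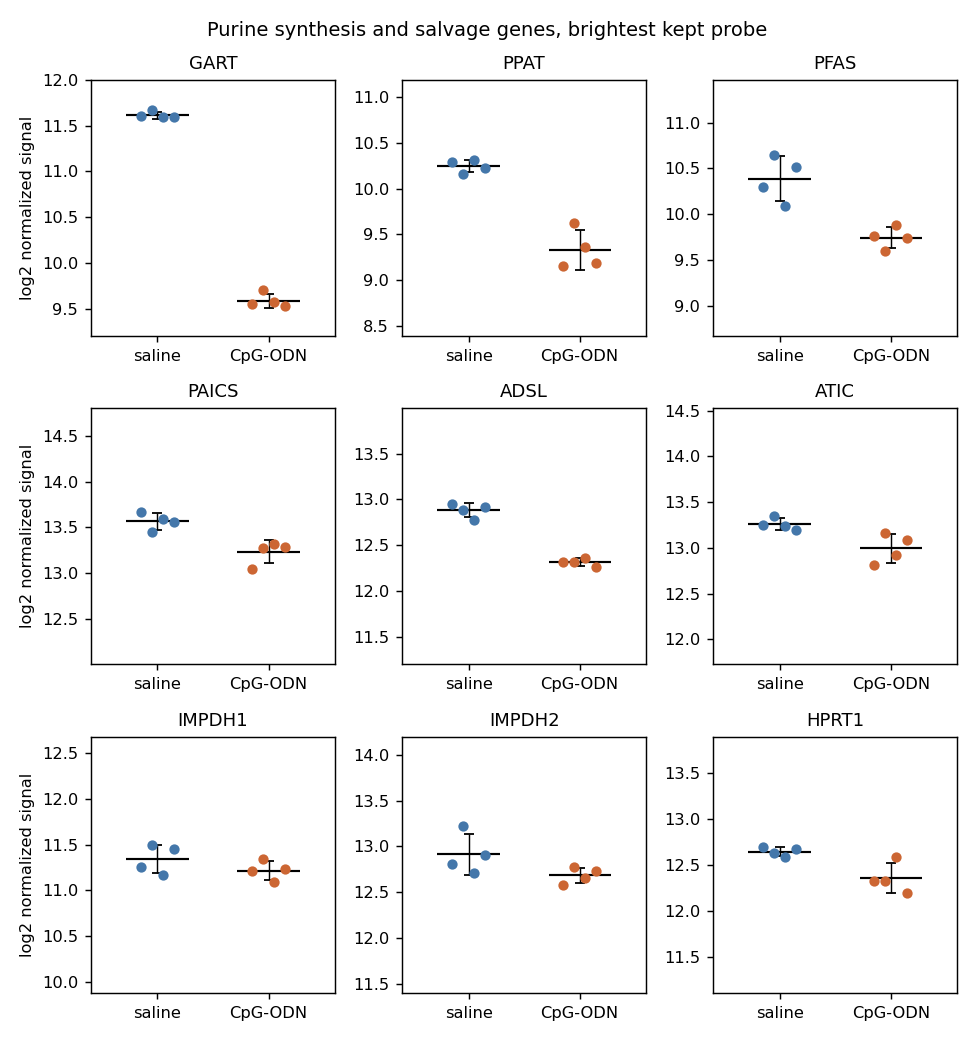
Normalized log2 signal (vertical axis) of the brightest kept probe of each of the 9 genes on 4 saline and 4 CpG-ODN arrays, with group means (lines) and SDs (bars). Each panel spans the same number of log2 units, so distances can be read across panels but levels cannot. GART, PPAT, PFAS and ADSL show the largest gaps, and IMPDH1, IMPDH2 and HPRT1 overlap between the groups.

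By the brightest kept probe, 4 of the 9 genes were called lower (GART, PPAT, PFAS and ADSL) and 0 were called higher. Across the array 16.3% of genes were called lower and 12.9% higher by the same rule. Because these genes were chosen with this comparison known, nothing is read from the count. All 9 differences were negative, from -2.03 to -0.13 with a median of -0.33, beside a median of -0.01 over all 11023 genes tested. The groups did not overlap, after CpG-ODN lower, for 6 of the 9 genes, beside 18.0% of all genes. By probe, 5 of the 13 were called lower, beside 13.9% of all kept probes, and 7 did not overlap after CpG-ODN lower, beside 14.9%. Each of the 9 stayed negative in each of the 19 alternative settings that were run. With no background correction, in the authors' normalized table and with a mean-variance trend, 7 of the 9 were called, all lower, and 5 with an offset of 50 or with only probes detected on all 8 arrays, where PAICS joined them.

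**Figure D3:**
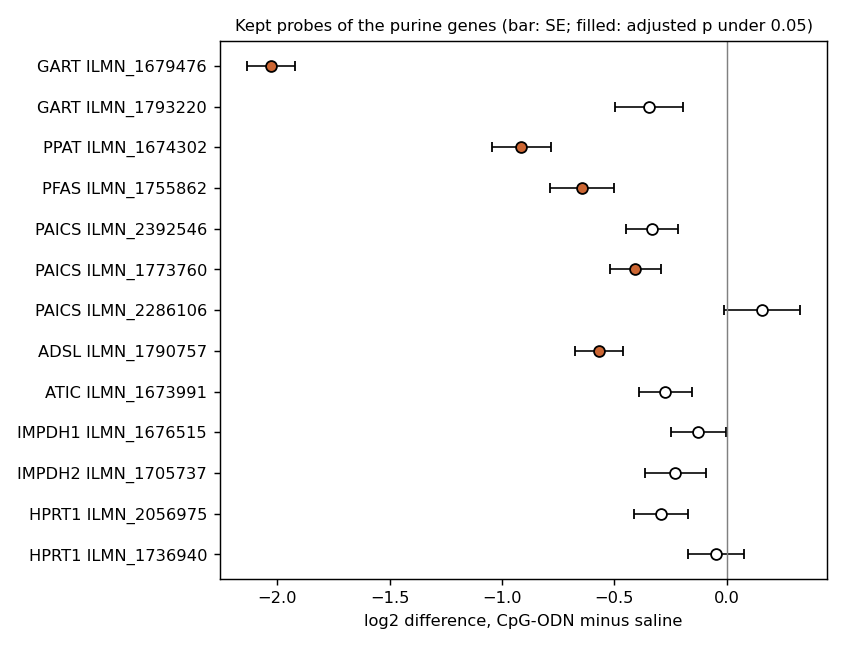
Log2 difference between CpG-ODN and saline (horizontal axis) for the 13 kept probes, with bars of 1 SE on either side. Filled points are probes called in the fit over all probes. ILMN_1679476 of GART lies at -2.03, and the dim PAICS probe ILMN_2286106 is the only one above 0, at 0.16.

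PPAT and PAICS also start back to back, on chromosome 4. The 136 bases between their starts in RefSeq (GRCh38.p14, chr4:56435616-56435751) are shown because neighbours in the pathway share them. They are written on the minus strand, the strand of PPAT, and hold no match to CCAAT or to CACGTG, the E-box letters that MYC and related factors bind. Read from left to right, they begin beside the PAICS start and end beside the PPAT start. Here too the label names the pair and not the order.
PPAT to PAICS: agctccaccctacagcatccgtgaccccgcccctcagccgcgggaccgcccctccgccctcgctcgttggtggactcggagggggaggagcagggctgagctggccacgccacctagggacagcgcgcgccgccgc
A CACGTG lies just beyond this stretch, beginning 182 bases before the PPAT start and at base 41 of PAICS (chr4:56435782-56435807, minus strand). ATIC holds 2, at 46 bases before its start (chr2:215312003-215312028, plus strand) and at base 30 after it (chr2:215312078-215312103, plus strand). These sites are printed with CACGTG in capitals.
PPAT and PAICS: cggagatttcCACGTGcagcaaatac
ATIC upstream: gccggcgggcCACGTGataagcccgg
ATIC downstream: cctacctgcgCACGTGgtgccgccgc
CACGTG reads the same on both strands and was found in 3 of the 12 windows of the purine genes (of ATIC, PAICS and PPAT), beside 7.3% of all windows. The PPAT and PAICS matches are the same site. The GART windows hold none of these letters. A match is a description of the letters and not a measured site.

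Over the 8 arrays, the genes whose brightest probe ran most like that of GART were KIFBP (Pearson r = 0.997), MYH10 (0.996), RSBN1 (0.993), ADGRG6 (0.993) and NOS3 (0.993). KIFBP encodes a kinesin-binding protein, MYH10 a nonmuscle myosin heavy chain, ADGRG6 an adhesion receptor and NOS3 a nitric oxide synthase. These correlations mostly restate the gap between the groups. After the group means were removed they were 0.48 for KIFBP, 0.68 for MYH10, 0.10 for RSBN1, 0.43 for ADGRG6 and 0.77 for NOS3. Within the pathway, PPAT gave 0.97 with the group means in and 0.70 with them removed, whereas ADSL gave 0.98 and 0.13. With the group means removed, ATIC, IMPDH2 and IMPDH1, none of them called, gave 0.65, 0.58 and 0.56. PFAS, HPRT1 and PAICS gave 0.02, 0.02 and -0.03. GART, ATIC, IMPDH1 and IMPDH2 were each highest on replicate 2 of both groups. PPAT was highest on CpG-ODN replicate 2 but lowest on saline replicate 2. How far the values rest on these arrays was not tested. The arrays share their normalization, and with 8 points these values are descriptions.

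The steps that feed and drain the pathway were read from 6 further lists, also written with earlier results of these data known. Of 83 genes listed, 76 had a probe and 67 were tested, of which 19 were lower and 2 higher. Over all genes 29.2% were called, 16.3% lower and 12.9% higher. Single arrays moved this count of 21, which fell to 13 without saline replicate 2. With median scaling 16 were called, all lower. That setting also moved the calls over all kept probes to 2775 lower and 858 higher, from 2521 and 2322. The median difference of the 67 was -0.17. Because these lists were chosen with earlier results known, nothing is read from their counts, here or list by list. Adjusted p-values below are from the limma fit over all kept probes. They describe single probes and lend no support to a list.

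**Figure D4:**
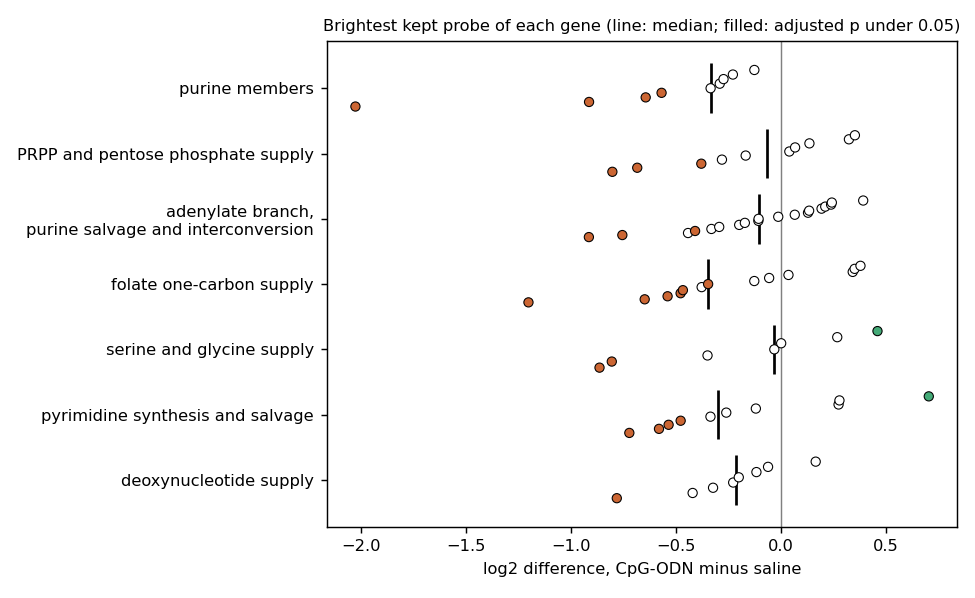
Log2 difference between CpG-ODN and saline (horizontal axis) for the brightest kept probe of each gene, in the 9 purine genes and the 6 further lists. Points are genes, filled where called (orange lower, green higher), and vertical lines are list medians. The folate list has the lowest median of the further lists, at -0.35, and the serine and glycine list the highest, at -0.03.

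Folate carries the carbons that GART and ATIC add. Of 13 folate genes tested, 6 were lower and 0 higher, beside 16.3% and 12.9% of all genes, with a median of -0.35. MTHFD2, a mitochondrial enzyme of the one-carbon cycle, stood at 11.48 ± 0.35 (SD, n = 4) in saline against 10.27 ± 0.16 (SD, n = 4) after CpG-ODN. It fell, with a log2 difference of -1.20 ± 0.18 (SE, adjusted p = 0.00103), and its groups did not overlap. MTHFD1, the cytosolic enzyme that makes the formyl donor itself, fell, at -0.54 ± 0.15 (adjusted p = 0.0255). MTHFS, which returns a stored folate to the pool, fell, at -0.48 ± 0.14 (adjusted p = 0.0309), though CpG-ODN replicate 3 lay above saline replicate 4. The proton-coupled folate transporter gene SLC46A1 stood at -0.65 ± 0.19 in the fit (adjusted p = 0.0309), but only 1 of 4 CpG-ODN arrays had it above background. All 4 saline arrays did, so it was kept through saline, the group where it is high. Nothing is read from its call, which is 1 of the 6 counted as lower. The folate receptor gene FOLR1 stood at 13.38 ± 0.16 in saline against 13.33 ± 0.23 after CpG-ODN (SD, n = 4 each, adjusted p = 0.822), and GGH, which trims the glutamate tail of folates, at 0.34 ± 0.13 (adjusted p = 0.0726). The call of MTHFD1 was lost without saline replicate 1 or 2 or CpG-ODN replicate 1 or 4 (adjusted p from 0.0523 to 0.0722). That of MTHFS was lost on leaving out any array but saline replicate 4 or CpG-ODN replicate 3 (0.0575 to 0.0795). That of SLC46A1 was lost without saline replicate 1, 2 or 4 or CpG-ODN replicate 1 or 4 (0.0697 to 0.0794). With no detection filter the calls of MTHFD1, MTHFS and SLC46A1 were lost too. With the replicate number as a block MTHFS and SLC46A1 were not called. MTHFS was not called either with median scaling or with detection on at least 1 array. The difference of SLC46A1 shrank to -0.21 in the authors' normalized table and also without background correction (adjusted p = 0.0879 for the latter), and was not called in either.

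Serine and glycine supply both the glycine built into the purine ring and the carbons of folate. Of 7 genes tested, 2 were lower and 1 higher, beside 16.3% and 12.9% of all genes. PHGDH, the first enzyme of serine synthesis, stood at 11.40 ± 0.24 (SD, n = 4) in saline against 10.53 ± 0.23 (SD, n = 4) after CpG-ODN, a log2 difference of -0.86 ± 0.16 (SE, adjusted p = 0.00354). PSPH, the last enzyme, fell, at -0.81 ± 0.21 (adjusted p = 0.0186), and its dimmer probe fell too, at -0.65 ± 0.13 (adjusted p = 0.00507). Without saline replicate 2 the call of the brighter PSPH probe was lost (adjusted p = 0.0519). PSAT1, the enzyme between them, stood at 0.00 ± 0.12 (adjusted p = 0.993). GCSH, of the glycine cleavage system, rose by 0.46 ± 0.13 (adjusted p = 0.0289), a call lost without saline replicate 1, 2 or 3 or CpG-ODN replicate 3 or 4 (0.0584 to 0.0725). With median scaling GCSH stood at 0.27 and was not called (adjusted p = 0.433). Nor was it called with no detection filter, detection on at least 1 array or the replicate number as a block. GLDC of the same system stood at -0.35 ± 0.12 (adjusted p = 0.0599) and was called in 7 of the 19 alternatives, of which 6 changed the processing and 1 left out CpG-ODN replicate 2 (adjusted p = 0.0429).

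PRPP, the substrate of PPAT, is made from ribose phosphate of the pentose phosphate pathway. Of 10 genes tested, 3 were lower and 0 higher, beside 16.3% and 12.9% of all genes. RPE, an epimerase of that pathway, stood at 10.10 ± 0.07 (SD, n = 4) in saline against 9.30 ± 0.11 (SD, n = 4) after CpG-ODN, a log2 difference of -0.80 ± 0.11 (SE, adjusted p = 0.00073). PRPSAP2, a protein associated with PRPP synthetase, fell, at -0.68 ± 0.11 (adjusted p = 0.00157) and at -0.50 ± 0.13 on its other probe (adjusted p = 0.0162). TALDO1, transaldolase, fell, at -0.38 ± 0.12 (adjusted p = 0.0341), a call lost on leaving out any array but CpG-ODN replicate 2 (0.0546 to 0.1002). The call was also lost with median scaling, no detection filter, detection on at least 1 array and the replicate number as a block. The synthetase gene PRPS1 itself stood at 0.14 (adjusted p = 0.455) and was looked at outside the naming rule. TKT stood at -0.28 ± 0.11 (adjusted p = 0.0935) and PGD at -0.17 ± 0.15 (adjusted p = 0.452).

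In the adenylate branch and in purine salvage and interconversion, 3 of 19 genes tested were lower and 0 higher by their brightest probes. Over all genes 16.3% were lower and 12.9% higher, and here too nothing is read from the count. Dimmer kept probes rose for ADK, adenosine kinase, at 0.93 ± 0.14 (SE, adjusted p = 0.001), and for NME2, a nucleoside diphosphate kinase, at 0.65 ± 0.15 (adjusted p = 0.0101), while the brightest probes of these genes stood at 0.24 and 0.13 (adjusted p = 0.162 and 0.624). PNP, which frees hypoxanthine and guanine for HPRT1, stood at 11.45 ± 0.15 (SD, n = 4) in saline against 10.54 ± 0.15 (SD, n = 4) after CpG-ODN, a log2 difference of -0.91 ± 0.13 (SE, adjusted p = 0.000763). MTAP, which salvages adenine from methylthioadenosine, fell, at -0.76 ± 0.15 (adjusted p = 0.00423). ADSS1, an adenylosuccinate synthetase, fell, at -0.41 ± 0.13 (adjusted p = 0.0417), while its dimmer kept probe stood at 0.04 (adjusted p = 0.9). The call of ADSS1 was lost on leaving out any array but saline replicate 1 or 3 (0.0587 to 0.112). It was also lost with no detection filter, detection on at least 1 array and the replicate number as a block. The kinase genes NME1 and GUK1 stood at -0.20 ± 0.11 (adjusted p = 0.212) and 0.14 ± 0.13 (adjusted p = 0.479).

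The parallel route to pyrimidines also draws on PRPP and glutamine. Of 10 genes tested there, 4 were lower and 1 higher, beside 16.3% and 12.9% of all genes. CAD, the multifunctional enzyme that opens the route, stood at 9.69 ± 0.16 (SD, n = 4) in saline against 9.11 ± 0.14 (SD, n = 4) after CpG-ODN, a log2 difference of -0.58 ± 0.13 (SE, adjusted p = 0.00823). The CTP synthetase genes CTPS2 and CTPS1 fell, at -0.72 ± 0.13 (adjusted p = 0.00267) and -0.53 ± 0.14 (adjusted p = 0.0175). A dimmer CTPS2 probe fell, at -0.63 ± 0.15 (adjusted p = 0.0126), and the dimmest kept one stood at -0.10 (adjusted p = 0.769). The uridine-cytidine kinase gene UCK1 rose by 0.71 ± 0.16 (adjusted p = 0.0106), except that it was not called with median scaling (0.51, adjusted p = 0.101) and, though called, stood at 0.30 in the authors' normalized table and also without background correction. UPP1, of uridine breakdown, stood at 0.28 ± 0.28 (adjusted p = 0.502) and CMPK1 at 0.28 ± 0.11 (adjusted p = 0.0829).

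Of 8 genes of deoxynucleotide supply tested, 1 was lower and 0 higher by their brightest probes. Over all genes 16.3% were lower and 12.9% higher, and again nothing is read from the count. A dimmer kept probe of RRM2B, an alternative small subunit of ribonucleotide reductase, rose by 0.73 ± 0.18 (SE, adjusted p = 0.0152), while its brightest probe stood at -0.06 (adjusted p = 0.885). RRM2, the small subunit of ribonucleotide reductase that accumulates in dividing cells, fell, with a log2 difference of -0.78 ± 0.20 (SE, adjusted p = 0.0173), with overlapping groups. The large subunit gene RRM1 stood at -0.20 ± 0.11 (adjusted p = 0.23) and TYMS, thymidylate synthase, at -0.23 ± 0.12 (adjusted p = 0.185).

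Epithelial and ovarian carcinoma markers were present, with 10 of 11 having a probe and all 10 tested, and their summed normalized signal lay between 102202 and 114518 in saline and between 105917 and 108639 after CpG-ODN. Of these 10, by their brightest probes, KRT18 rose and 0 fell. The dimmer KRT18 probe stood at 0.49 and was not called (limma adjusted p = 0.08). A dimmer kept probe rose for PAX8, at 0.90 (adjusted p = 0.00115), and for MUC1, at 0.75 (adjusted p = 0.00415). The brightest probes of PAX8 and MUC1 stood at -0.10 and 0.33, and their remaining kept probes at -0.44 and 0.46, none of them called. Of 10 macrophage markers 4 were tested, with CD14 and CD68 higher and AIF1 lower, and their sum lay between 5483 and 7372 in saline and between 6957 and 10591 after CpG-ODN. CD14 was dim, at a mean of 5.38 in saline and 6.13 after CpG-ODN, with overlapping groups. It was above background on 1 of the saline and 3 of the CpG-ODN arrays, so it was kept mainly through CpG-ODN. Dimmer kept probes of CD68 stood at 0.38 and 0.85 and were not called (limma adjusted p = 0.408 and 0.0567). CSF1R, MRC1, PTPRC and TYROBP were not above background on any array. Of 6 endothelial markers 3 were tested, with VWF and CDH5 higher, sums of 546 to 640 and of 834 to 1133, and CLDN5 not above background on any array. Of 8 fibroblast markers 4 were tested, with ACTA2 lower, sums of 2077 to 2696 and of 1140 to 1367, and COL1A2, COL3A1 and LUM not above background on any array. ACTA2 alone carried that fall, at -1.15, since COL1A1, DCN and PDGFRA stood at -0.04, 0.45 and 0.39 and were not called. Of 5 mesothelial markers 4 were tested, with UPK3B higher and LRRN4 lower and sums of 8263 to 9767 and of 8546 to 9379. Both calls were near the threshold (limma adjusted p = 0.0487 and 0.0459). The UPK3B groups overlapped, and its dimmer kept probes were not called (adjusted p from 0.063 to 0.219). WT1 was not above background on any array, and 0 of 8 lymphocyte markers were tested. The array reads human transcripts, and the only human cells described are those of the IGROV-1 line. Whether macrophage, endothelial, fibroblast and mesothelial markers were read from these cells or from mouse RNA that binds was not tested. The part of these markers in the purine gene differences was not tested either. In bulk samples such as these, fewer cells of a type and less RNA per cell cannot be told apart.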

How the data were processed

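The main table holds average bead signals, intensity values that the authors deposited without normalization, and a detection p-value beside each, per the file headers. A further deposited table holds intensity values normalized by the authors to the same distribution on every array, and it served as an alternative. The sources used here do not name its method, but its results nearly matched those of quantile normalization without background correction. BeadStudio appears, with no version, in the processing notes of the submitters.

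Background correction and quantile normalization followed neqc of limma 3.58.1 (R 4.3.3), with an offset of 16. Of 48797 probes, 18184 were kept, of which 14584 had 1 gene, 3 several and 3597 are unnamed here. Names came from the platform annotation and RefSeq. Treatment was the only term of the limma model (lmFit, eBayes), tests were two-sided, and p-values were adjusted by Benjamini and Hochberg across the kept probes. The purine genes and all lists were chosen with earlier results of these data known. The naming rule took every purine gene, up to 4 called and 2 bright uncalled genes of each further list, and the 5 genes most like GART. Alternatives covered background, normalization, filter, spread, replicate block and each array left out. Correlations between arrays ran from 0.982 to 0.988 within groups and from 0.959 to 0.972 between them. The number of arrays limits the precision.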

Additional observations from a re-analysis of the deposited data

Results flagged for a closer look

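A single array stood far from the other 3 of its group in 9 of 116 groups of 4 examined, where chance gives about 1 in 20. The share of the group's range taken by the gap was 0.837 for the full-length GART probe in saline, where replicate 2 was at 11.67 and the others between 11.59 and 11.60. It was 0.87 for PAICS probe ILMN_2392546 with CpG-ODN (replicate 1 at 13.05, others 13.28 to 13.32) and 0.92 for ILMN_1773760 in saline (replicate 3 at 13.36, others 13.53 to 13.54). With CpG-ODN, it was 0.847 for TKT (replicate 2), 0.917 for MTHFS (replicate 3), 0.973 for PSAT1 (replicate 1) and 0.886 for UPP1 (replicate 1 at 13.03, others 12.05 to 12.16). In saline, it was 0.949 for TYMS (replicate 4) and 0.852 for the mean raw signal, with replicate 1 at 1079 and the others from 876 to 906. The full-length GART probe stood at -2.02 without saline replicate 2.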

How the results depend on the processing

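The full-length GART probe was lower and called in each of 19 alternatives, at -2.15 to -1.81, and at -2.06 to -2.002 with 1 array left out. PPAT, PFAS and ADSL were also called lower in each of the 19. Since these genes were chosen with this comparison known, the steadiness of their calls is a description and adds no support. The number of purine genes called was 4 in the main setting and with each array left out, and 7 with no background correction, in the authors' normalized table and with the mean-variance trend, since PAICS, ATIC and HPRT1 were called there. It was 5, with PAICS, under an offset of 50 and with detection on all 8 arrays. No background correction and the authors' normalized table both put the GART probe at -1.81 and called 5363 and 5364 probes. They are nearly the same setting and are not separate alternatives. The 21 further pathway genes called ranged from 13 to 20 with 1 array left out. With the replicate number as a block 13 were called, while the count of purine genes stayed at 4. The block is a number only: deviations of same-numbered arrays correlated at -0.27 to 0.09, 1 of 4 saline arrays matched its own number best, and the block called 3954 probes in place of 4843. Of 53 single probes followed, 30 were called, of which 21 held that call in every alternative run on them, and 0 reversed. Median scaling moved the median of all kept probes from 0.01 to -0.10 and the split of called probes from 2521 lower and 2322 higher to 2775 lower and 858 higher. The mean of all kept probes put GART at -1.19 and PAICS at -0.19, with 4 purine genes called.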
